A study of Arabidopsis thaliana with 6 samples.

Results

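The berberine bridge enzyme-like oxidases of Arabidopsis thaliana were examined as 10 loci listed by name, among 27 loci of the family listed here, in leaves infiltrated with diet that carried aphid saliva. The loci were found through the probe sets of the ATH1 GeneChip of Affymetrix, which is hybridised with a single labelled sample and reads each transcript with a set of short oligonucleotides. Of the 10 loci, 5 had a probe set of their own (AT1G26380, AT1G30700, AT2G34810, AT4G20830 and AT4G20860) and 2, AT1G30720 and AT1G30730, were read together by a single probe set and could not be separated. For the other 3, AT1G26410, AT1G26420 and AT5G44380, no probe set among the deposited values was annotated to them, and they were not analysed here. Whether the array carries probe sets for them was not checked. The listed loci were therefore counted through 6 probe sets of the 15177 tested. A further probe set, which AT4G20830 shares with AT4G20840, a family locus outside the 10, is described below but not counted.

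The series asked which leaf transcripts differ after contact with saliva of the green peach aphid, Myzus persicae. All plants were 3-week-old wild-type Columbia-0, and both groups were infiltrated, through a syringe without a needle, with artificial diet of sucrose and amino acids. In the saliva group the diet had been fed on by aphids for 24 h, and in the control group it came from cups with 0 aphids. Leaves were taken 24 h after treatment, and each array held a pool of 18 leaves, 3 from each of 6 plants, in 3 repeats of the experiment in which control and saliva plants shared pots. The control leaves had thus also been infiltrated and exposed to sugar and amino acids, and no uninfiltrated leaves were analysed here.

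Berberine bridge enzyme-like proteins are flavoproteins that bind FAD covalently and carry a secretion signal in most cases. They take their name from an enzyme of benzylisoquinoline alkaloid synthesis in poppies, a pathway that Arabidopsis lacks. In Arabidopsis, members oxidise oligosaccharides released from the cell wall, the alcohols from which lignin is built, or indolic defence compounds, and several hand their electrons to oxygen and so make hydrogen peroxide. Many are encoded in tandem arrays, and several are known as transcripts induced by pathogens or wounding.

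The loci sit in tandem arrays in the RefSeq gene order of assembly TAIR10.1. AT1G26380, AT1G26410 and AT1G26420 lie in a run of 5 adjacent family loci on chromosome 1, and AT1G30700, AT1G30720 and AT1G30730 in another run of 5 on that chromosome. AT4G20830 and AT4G20860 belong to a group of 5 family loci on chromosome 4, AT5G44380 to a group of 6 on chromosome 5, and AT2G34810 is next to 1 other family locus on chromosome 2. Signal shared between close copies was not tested.

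The medians of the 6 arrays lay between 139.2 and 146.8 intensity units, and the lowest intensity on an array between 3.23 and 3.28. Of 10 leaf mesophyll markers 3 had a named probe set, and all 3 were bright on every array, from 12328 to 28215 units. These were RCA (rubisco activase), PRK (phosphoribulokinase) and AT2G26500 (a cytochrome b6f subunit). Their log2 differences, saliva minus control, were 0.000875 ± 0.044, -0.15 ± 0.17 and 0.0049 ± 0.081 (SD, n = 3 repeats). Of the root, the flower and seed, and the phloem markers listed, 0 had a named probe set, so those cells were not checked.

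In the limma fit paired by repeat, 0 of the 6 probe sets were called higher and 0 lower at an adjusted p under 0.05, beside 0% and 0% of all probe sets. At an unadjusted p under 0.05 limma also had 0 of the 6, where 11.0% of all probe sets lay under that limit, and the authors' deposited table lists 0 of the 6 with a paired rate under 0.05, beside 3.04% of its probe sets. The mean difference was above 0 for 6 of 6, beside 49.8% of all probe sets, and at least 0.5 log2 units for 4 of 6, beside 2.85%. The probe set that AT4G20830 shares with AT4G20840, not counted among the 6, had a mean difference of -0.24. The median difference was 0.53 over the 6 and -0.00056 over all probe sets. Without repeat 3 the median over the 6 was 0.32 and 2 of 6 reached 0.5, beside 2.91% of all probe sets, and with array weights the median was 0.37 and 1 of 6 reached it, beside 3.39%. Of the 4, AT1G26380 and AT1G30700 were dim and each high on a single array. The loci were chosen with earlier results of these data known, and the limit of 0.5 after their values were seen, so these counts are a description. In whole leaves, more cells of a type and more RNA per cell cannot be told apart.

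**Figure D1:**
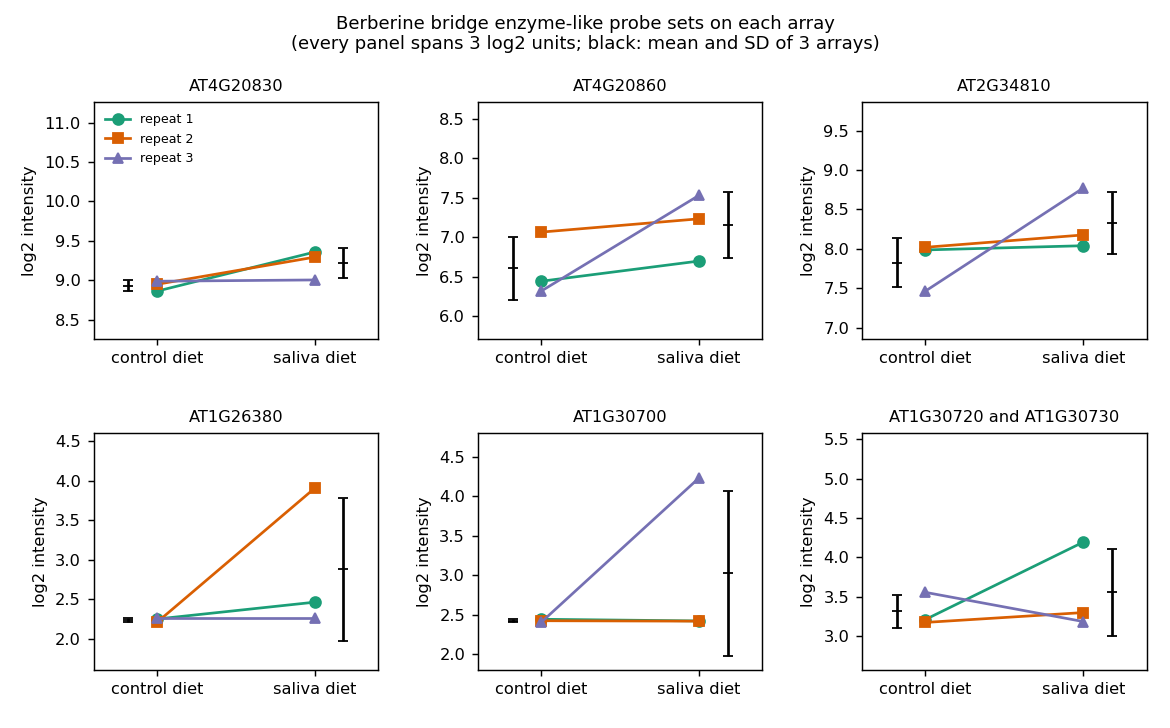
Log2 intensity of the 6 probe sets on each array, 1 panel per probe set, with lines that join the control and saliva arrays of a repeat and black bars for the mean and SD of 3 arrays. AT4G20830 was higher with saliva in repeats 1 and 2, AT4G20860 and AT2G34810 mostly in repeat 3, and each of the other 3 probe sets was high on 1 saliva array, a different one each time.

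The oligosaccharide oxidases AT4G20830 and AT4G20860 come first by role. AT4G20830 oxidises oligogalacturonides, the pectin fragments that act as damage signals, and is known as OGOX1. Its intensity in control leaves was 465.05, 493.96 and 507.63 in repeats 1, 2 and 3, and after saliva 656.50, 627.70 and 513.41. The groups did not overlap, but in repeat 3 the arrays were nearly equal. Differences were 0.50, 0.35 and 0.016 on the log2 scale, with a mean of 0.29 ± 0.25 (SD, n = 3 repeats), a 95% interval of -0.038 to 0.61 and a limma adjusted p of 0.483. Without repeat 1 the mean was 0.18.

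A second probe set is annotated to AT4G20830 and AT4G20840 together. AT4G20840 encodes another oligogalacturonide oxidase. It read 93.16, 90.75 and 76.54 in controls and 67.17, 77.92 and 74.60 after saliva. The probe sets thus ran in opposite directions in every repeat, with a mean of -0.24 ± 0.22 for the shared one (limma adjusted p = 0.51), which was -0.13 without repeat 1. The transcripts of the neighbouring genes behind the shared value could not be separated.

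AT4G20860 oxidises cellulose fragments such as cellobiose and is known as CELLOX. It read 86.90, 133.84 and 79.63 in controls and 103.82, 150.46 and 185.04 after saliva. Saliva was higher in each repeat, while the groups overlapped because control 2 exceeded saliva 1. The log2 differences were 0.26, 0.17 and 1.22, with a mean of 0.55 ± 0.58, a 95% interval of -0.095 to 1.19 and a limma adjusted p of 0.493. Without repeat 3 the mean was 0.21.

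AT1G26380, known as FOX1, catalyses a step in the synthesis of cyanogenic indolic nitriles, which are made in leaves under pathogen attack. Controls were dim, at 4.75, 4.61 and 4.78, and saliva arrays read 5.51, 15.03 and 4.78. A single array, saliva 2, was high, at 2.73 times the next highest, and the control and saliva arrays of repeat 3 were equal. The mean log2 difference was 0.64 ± 0.93 with a 95% interval of -0.36 to 1.64 (limma adjusted p = 0.593). It was 0.11 without repeat 2.

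The members whose substrates are not stated here were AT1G30700, the pair AT1G30720 and AT1G30730, and AT2G34810. AT1G30700 read 5.43, 5.36 and 5.28 in controls and 5.35, 5.34 and 18.82 after saliva. The 5 other arrays were within 0.15 units of each other, and saliva 3 was 3.47 times the next highest. Its mean log2 difference of 0.60 ± 1.07, with a 95% interval of -0.54 to 1.74 and a limma adjusted p of 0.654, became -0.013 without repeat 3.

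The probe set of AT1G30720 and AT1G30730 read 9.27, 9.04 and 11.78 in controls and 18.32, 9.86 and 9.11 after saliva. Saliva 1 was 1.56 times the next highest array, and in repeat 3 the control was the higher. The differences of 0.98, 0.13 and -0.37 gave a mean of 0.25 ± 0.68 with a 95% interval of -0.50 to 0.99 (limma adjusted p = 0.798), and -0.12 without repeat 1.

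AT2G34810 read 253.63, 259.57 and 176.48 in controls and 263.22, 289.36 and 437.19 after saliva. Every saliva array was above every control array, narrowly so for saliva 1 over control 2. Repeat 3 held both extremes, its control being the lowest and its saliva array the highest of the 6. The differences were 0.054, 0.16 and 1.31, with a mean of 0.51 ± 0.70, a 95% interval of -0.25 to 1.27 and a limma adjusted p of 0.575. Without repeat 3 the mean was 0.11.

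Groups did not overlap for 2 of the 6 probe sets, AT4G20830 and AT2G34810, with saliva higher in both, beside 7.66% of all probe sets in that direction, and for 0 of 6 with saliva lower, beside 8.58%. Saliva was higher in all 3 repeats for 3 of the 6, the same loci and AT4G20860, beside 16.7% of all probe sets, and lower in all 3 for 0, beside 15.6%. The uncounted probe set shared by AT4G20830 and AT4G20840 was lower in all 3. By repeat, 5, 5 and 4 of the 6 had a difference above 0 in repeats 1, 2 and 3, beside 46.8%, 56.0% and 50.8% of all probe sets. The median over the 6 was 0.24, 0.16 and 0.62 in the same order, and over all probe sets -0.016, 0.0085 and 0.0050. The repeats did not share the same leading genes. In repeat 1 the highest difference was that of the AT1G30720 and AT1G30730 probe set, in repeat 2 that of AT1G26380 and in repeat 3 that of AT1G30700. These 3 are the dim probe sets, each high on a single saliva array.

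**Figure D2:**
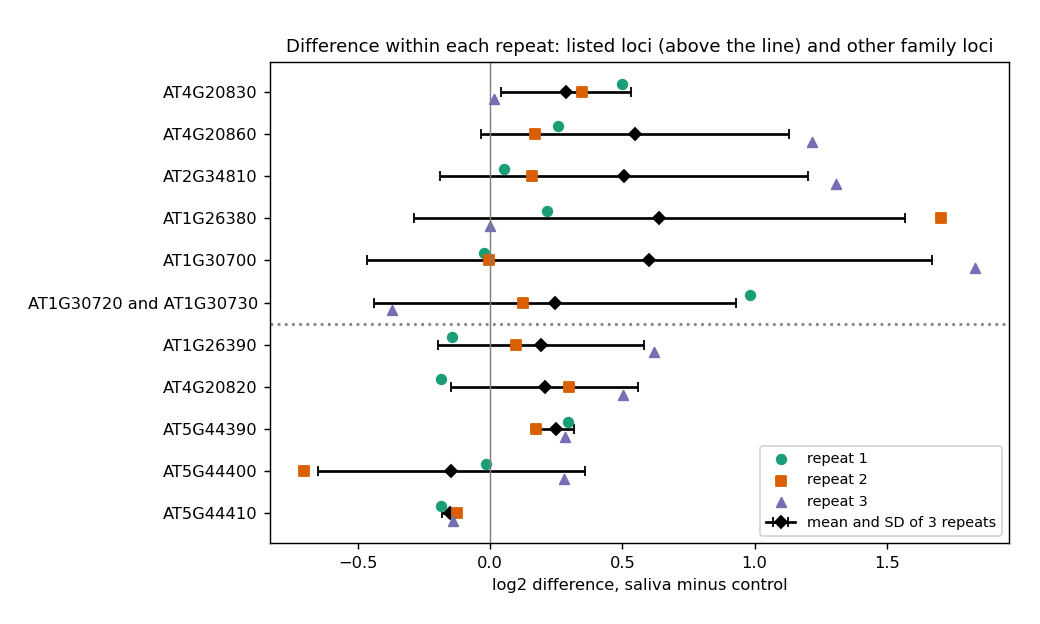
Log2 difference, saliva minus control, within each repeat (coloured symbols) with the mean and SD of 3 repeats (black) for the 6 probe sets of the listed loci and, under the dotted line, 5 other loci of the family. Means of the 6 probe sets run from 0.25 to 0.64 and those of the other loci from -0.15 to 0.25. The listed loci were chosen with earlier results of these data known, so this contrast is a description only. The probe set shared by AT4G20830 and AT4G20840 is not drawn.

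The spread between repeats was wide for 5 of the 6 probe sets. The SD of the 3 differences of AT1G30700, 1.07, was reached by 0.652% of all probe sets, that of AT1G26380 by 1.11%, that of AT2G34810 by 2.64%, that of the AT1G30720 and AT1G30730 probe set by 2.81% and that of AT4G20860 by 4.83%. AT4G20830 was the exception, with an SD reached by 33.3% of all probe sets. The SD of the log2 level in control leaves was 0.020 for AT1G30700 and 0.028 for AT1G26380, against 1.05 and 0.90 among saliva arrays. The control intensities of these genes, from 4.61 to 5.43, were close to the lowest intensity on an array given above. For the AT1G30720 and AT1G30730 probe set, also dim, the SD was 0.21 among control and 0.55 among saliva arrays.

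**Figure D3:**
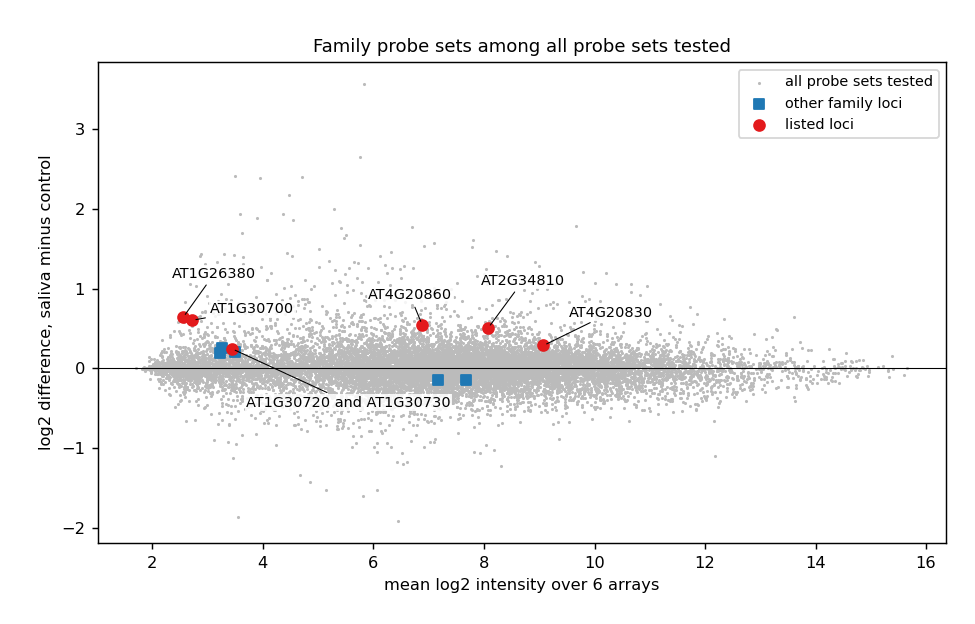
Log2 difference, saliva minus control, against mean log2 intensity over the 6 arrays for all 15177 probe sets (grey), the listed loci (red) and the other family loci (blue). AT1G26380, AT1G30700 and the AT1G30720 and AT1G30730 probe set lie at the dim end, and the 3 other listed loci among moderately bright probe sets.

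A saliva array was the highest of the 6 arrays for 6 of the 6 probe sets, beside 50.9% of all probe sets. For the uncounted probe set shared by AT4G20830 and AT4G20840, control 1 was the highest. Saliva 3 was highest for AT1G30700, AT2G34810 and AT4G20860 (14.6% of all probe sets), saliva 1 for AT4G20830 and for the AT1G30720 and AT1G30730 probe set (18.6%), and saliva 2 for AT1G26380 (17.6%). Among the 2525 probe sets that read under 16 units on at least 5 arrays, 104, or 4.12%, had a saliva array at least 1.5 times the next highest, and 48, or 1.90%, a control array. All 3 dim probe sets of the listed loci were among the 104. The shares are over deposited probe sets only, and whether dim ones were chosen for deposit by their values was not checked. The limit of 1.5 times was chosen after the values of the listed loci were seen. At 2-fold the saliva count was 49, or 1.94%, with AT1G26380 and AT1G30700 among them, and the control count was 5. Saliva 3, the array on which AT1G30700 stood out, held 41 of those 49, saliva 2 held 5 and saliva 1 held 3. The part of the array itself in the AT1G30700 value was not tested.

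**Figure D4:**
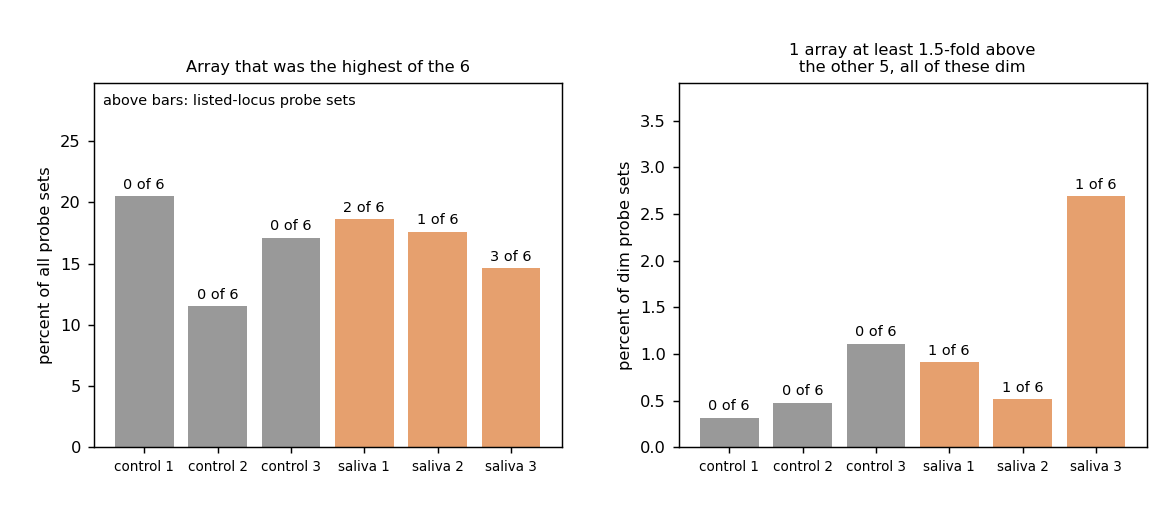
Left, the percentage of all 15177 probe sets for which each array was the highest of the 6. Right, the percentage of 2525 dim probe sets on which an array was at least 1.5 times the other 5. Numbers over the bars count those of the 6 probe sets of the listed loci that fall on each array. On the left all 6 fall on saliva arrays. On the right only the 3 dim ones are counted, 1 on each saliva array. Saliva 3 has the tallest bar on the right, at 2.69%.

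Of the 17 other family loci, 5 had a probe set of their own. Their median difference was 0.19. Since the listed loci were chosen with earlier results of these data known, a contrast between them and these loci is a description only. At an adjusted p under 0.05 limma called 0 of 5 higher and 0 lower, beside 0% and 0% of all probe sets. At an unadjusted p under 0.05 limma had 1 of 5, beside 11.0% of all probe sets. That one was AT5G44390, a neighbour of AT5G44380, with dim values of 9.36, 8.35 and 8.81 in controls and 11.48, 9.41 and 10.72 after saliva. Its groups did not overlap, as for 7.66% of all probe sets in that direction. Its difference of 0.25 ± 0.067 was the most even among the family's higher values (95% interval 0.043 to 0.46, limma adjusted p = 0.415). AT5G44410 had -0.15 ± 0.031, below 0 in all 3 repeats, as for 15.6% of all probe sets. AT5G44400 had -0.15 ± 0.50, with -0.70 in repeat 2 and a mean of 0.13 without that repeat.

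The measured neighbours of AT1G26380 and AT4G20830 were highest on other arrays than these. AT1G26390, next to AT1G26380 and also dim, read 9.45, 8.15 and 8.74 in controls and 8.56, 8.72 and 13.42 after saliva. Its highest array was saliva 3, on which AT1G26380 was no higher than in controls. AT4G20820, next to AT4G20830 but dim where AT4G20830 is not, read 12.34, 11.22 and 8.46 in controls and 10.86, 13.79 and 12.0 after saliva. It was lower with saliva in repeat 1, in which AT4G20830 had its largest difference, and it had 0.50 in repeat 3, in which AT4G20830 was level. The test of a difference between neighbours was not run.

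Few other genes of the pathways in which the family acts had an annotated probe set among the deposited values. The annotation gave no gene for 6513 of the 15177 probe sets, and whether some of these read the remaining loci was not checked. Of 17 loci listed for indolic nitrile and camalexin synthesis, 1 had a named probe set, CYP71B6, a cytochrome P450 of indolic metabolism. Its difference was 0.12 ± 0.17 (limma adjusted p = 0.688), 0.21 without repeat 1 and 0.043 without repeat 3. Of 17 for monolignol synthesis 1 had a named probe set, HCT, a hydroxycinnamoyl transferase. It read 931.15, 863.04 and 1052.73 in controls and 818.33, 838.96 and 822.38 after saliva, so the groups did not overlap, as for 8.58% of all probe sets in that direction. Its difference was -0.19 ± 0.16 (limma adjusted p = 0.527), and -0.11 without repeat 3. Of the 10 loci for oligogalacturonide release and sensing and the 11 for hydrogen peroxide production and removal, 0 had a named probe set.

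The genes with the profile nearest to that of a family member were found by the root mean square distance between log2 profiles over the 6 arrays, each centred on its own mean, among genes with a mean log2 intensity of at least 4. AT1G56220, AT1G09740 and AT2G25740 lay 0.034, 0.040 and 0.041 log2 units from AT4G20830. AT5G05600, AT5G61820 and CuAO1, a copper amine oxidase gene, lay 0.10, 0.13 and 0.14 from AT2G34810. The nearest to AT1G26380 were AT1G74860, AT1G64380 and B120, at 0.26 to 0.28, and to AT1G30700 AT1G77640, AT5G55180 and AT5G12420, at 0.21 to 0.29. AT1G26380 and AT1G30700 have mean log2 intensities of 2.56 and 2.72, so genes as dim as these were not among the candidates. The root mean square of their own centred profiles was 0.61 and 0.68, so these distances are not small beside it. AT5G05600 read 1282.19, 1139.32 and 743.94 in controls and 1188.90, 1273.80 and 1762.72 after saliva, so that, like AT2G34810, it had its lowest and highest values in repeat 3. With 6 arrays and this many candidates, close profiles are a description only.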

How the data were processed

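The arrays were deposited as normalized intensity values that are not log-transformed, with 1 value for each of 15236 probe sets. Whether other probe sets of the array were left out before deposit was not checked. Per the file headers, the authors added a fold change and paired and unpaired false discovery rates (adjusted p-values). The fold is a ratio of saliva over control. The submitters' processing notes name GCRMA, GCOS and limma, with the step of each not given in the sources used here. Both deposited tables hold the same array values (0 cells differ), and 0 columns of per-sample values were left unused.

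Here the intensities were log2-transformed with no pseudocount. The number of arrays limits the precision, since arrays carry no read depth. The 59 Affymetrix control probe sets were left out. The probe annotation gave 1 gene for 8330 probe sets, several for 334 and none for 6513; loci were matched by gene number to RefSeq TAIR10.1. No coordinates are printed, since the sources used here name no genome build for the array. Intensities of different probe sets are not comparable with each other.

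The limma package (3.58.1, R 4.3.3) was used to fit saliva minus control (lmFit, eBayes, two-sided) with the repeat as a block, because the labels' protocols say that control and saliva plants shared pots. P-values were adjusted by Benjamini-Hochberg over 15177 probe sets. Deviations from the group mean correlated at -0.12, 0.146 and 0.103 within repeats 1, 2 and 3. The fit was tested on simulated data with an equal spread for every probe set and no effect of the repeat. That checks the working of the fit and does not measure how readily changes in the listed loci would be found. The raw file names in the labels set repeat 1 apart from repeats 2 and 3, so the fit without repeat 1 is the value within the larger group of arrays; the other group holds 1 pair and gives no test. Alternatives were a fit without the block, a mean log2 floor of 4, quantile normalization, an intensity trend, array weights, median centring, each repeat left out, random blocks, the array grouping as a block and an adjusted p under 0.1. The members and lists were chosen with earlier results of these data known. Genes were named by a rule: every listed locus, other family loci with a probe set of their own, up to 3 members per pathway list with the smallest p, and the 3 nearest profiles to each of 4 members.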

Additional observations from a re-analysis of the deposited data

How the results depend on the processing

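None of the 6 probe sets passed an adjusted p under 0.05 in any of the fits run. No replicate block gave 1 of the 6 at an unadjusted p under 0.05 (AT4G20830, limma adjusted p = 0.404), beside 11.6% of all probe sets, and changed no other call among the 6. That count was 1 with a random block at the estimated correlation of -0.0536, beside 10.8% of all probe sets. With the correlation fixed at 0.75 it was 2, beside 23.0%. With array weights it was 2 (AT1G26380, at 1.10, and AT4G20830), beside 17.9%. With a repeat left out it was between 0 and 1, beside 6.20% to 12.2%. All probe sets at an unadjusted p under 0.05 numbered 2723 with array weights, 3498 with the fixed correlation and between 941 and 1848 with a repeat left out. The fixed correlation called 221 probe sets higher and 255 lower. For the 6 probe sets its limma adjusted p-values were close to the authors' paired rates, as for AT1G26380 at 0.315 and 0.316. Each other fit, and an adjusted p under 0.1, kept both at 0. Differences changed sign for 4 probe sets when a repeat was left out, where 4 arrays remain. AT1G30700 ran from -0.013 (without replicate 3) to 0.91, the AT1G30720 and AT1G30730 probe set from -0.12 (without replicate 1) to 0.55, AT1G26390 from -0.023 (without replicate 3) to 0.36, and AT5G44400 from -0.36 to 0.13 (without replicate 2). With array weights, which gave pair 2 a weight of 2.22 against 0.622 and 0.725, AT1G30700 had 0.37 and AT5G44400 had -0.38. A minimum mean log2 intensity of 4 leaves 3 of the 6 probe sets, without AT1G26380, AT1G30700 and the AT1G30720 and AT1G30730 probe set. The mean over several probe sets of a gene was not run, because each listed locus had at most 1 of its own. Signal near the lowest intensities limits the dim members.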
